A study of Homo sapiens with 4 samples.

Results

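The genes described here are ITGA3, ITGB4, ITGB8 and LAMB1, which were chosen by name from a qRT-PCR panel of cell adhesion and cytoskeletal genes. They are 4 of its 184 target assays, and all 4 gave a signal in every sample. The study filled the panel with genes that differed in its array or protein data, or that the literature links to such pathways. Shares over all assays given below are thus shares of a chosen panel. The panel compared 2 HEK293-PRL-1 samples, from cells stably transfected with pcDNA4-PRL-1, with 2 HEK293-vector samples, from cells stably transfected with the empty pcDNA4 vector. Both were grown in the same medium with serum, and HEK293 is an established human embryonic kidney line. PRL-1 is a protein tyrosine phosphatase encoded by PTP4A1. The overexpression could not be checked here, since the PTP4A1 assay did not reach its threshold in any of the 4 samples. The study states that its earlier work found more PRL-1 mRNA and protein in this line than in the vector line. The sources used here do not say whether each line is a single clone, so that a difference between the lines and an effect of PRL-1 cannot be told apart. The question was whether expression of these adhesion genes differed between the lines.

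Integrins are receptors made of an alpha and a beta subunit that span the cell membrane and bind matrix proteins or other ligands. ITGA3 encodes the alpha 3 subunit, which pairs with beta 1 into a laminin receptor. ITGB4 encodes the beta 4 subunit, which pairs with alpha 6 into the laminin receptor of hemidesmosomes. ITGB8 encodes the beta 8 subunit, which pairs with alpha V and takes part in the activation of latent TGF-beta. LAMB1 encodes the laminin beta 1 chain, a ligand component that is assembled with an alpha and a gamma chain in basement membranes.

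Relative to 18S ribosomal RNA, the receptor subunits ITGA3 and ITGB4 were lower in the HEK293-PRL-1 cells, and the subunit ITGB8 and the ligand chain LAMB1 were higher. ITGB4 was 7.94-fold lower and ITGA3 2.08-fold lower. ITGB8 was 13.8-fold higher and LAMB1 5.09-fold higher (n = 2 per group for each). The sizes depended on the reference, as described below. No change of LAMB1 was detected with B2M, another reference gene, or with the median Ct of each sample as the reference.

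ITGA3 and ITGB4 lie on chromosome 17 and ITGB8 and LAMB1 on chromosome 7 of the RefSeq annotation of GRCh38.p14. The 2 members lower relative to 18S thus share a chromosome, as do the 2 higher ones. Whether the chromosome has a part in the changes was not tested. The sequence just before the start site is shown for ITGB8 and LAMB1, the members that were both higher relative to 18S. It was taken from the RefSeq promoter table, which matched 2 of the 4 symbols. Each is 250 bases long on GRCh38.p14, and the capitals mark matches to the GC box GGGCGG, searched on both strands with overlapping matches counted. The ITGB8 stretch is chr7:20330650-20330899 on the plus strand and the LAMB1 stretch is chr7:108003162-108003411 on the minus strand.
ITGB8: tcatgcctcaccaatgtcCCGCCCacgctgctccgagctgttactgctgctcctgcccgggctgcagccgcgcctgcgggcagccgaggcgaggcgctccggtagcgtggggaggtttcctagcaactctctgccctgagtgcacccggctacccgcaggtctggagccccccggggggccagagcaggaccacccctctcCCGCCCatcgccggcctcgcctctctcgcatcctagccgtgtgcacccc
LAMB1: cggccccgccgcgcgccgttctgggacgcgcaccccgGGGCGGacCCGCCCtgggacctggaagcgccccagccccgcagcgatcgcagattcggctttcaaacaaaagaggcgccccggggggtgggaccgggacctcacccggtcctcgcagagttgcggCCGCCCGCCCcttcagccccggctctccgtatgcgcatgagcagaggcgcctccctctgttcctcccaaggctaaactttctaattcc
The GC content was 71.2% for ITGB8 and 70.4% for LAMB1, against a median of 58.0% over 35116 promoters of the same length. ITGB8 held 2 matches to the GC box and LAMB1 held 4, a motif found in 42.6% of all promoters. ITGB8 held 1 match to CCAAT, which 32% of promoters hold, and LAMB1 held 0. Neither held TATAAA, found in 10.7% of promoters, or TGANTCA, found in 6.57%. These matches describe letters only, and no binding was measured.

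The quantity read from each well was the threshold cycle (Ct), the cycle at which fluorescence of the TaqMan probe passes a fixed value. More template gives a lower Ct, and a Ct of 40 means that the threshold was not reached. The detected target wells had a median of 30.8 cycles. Raw Ct values of 18S lay between 13.9 and 14.2 cycles in the 4 samples. Each target assay had 1 well per sample, so that the error of a single well enters every value. The references 18S, GAPDH and B2M had a well on each plate, and over these 12 pairs the wells differed by a median of 0.0322 cycles and by 0.641 cycles at most. The samples of each group are named a and b after the letters of the data columns. Of the cell type markers on the panel, the epithelial CDH1 was detected in all samples, between 33.0 and 33.5 cycles. The endothelial SELE and VCAM1 were at 40 in all samples and PECAM1 in both HEK293-vector samples. PECAM1 was at 38.5 and 38.7 cycles in HEK293-PRL-1. Of the 3 genes listed as mesenchymal markers, which were detected late, PDGFRA was higher by a log2 fold change of 3.21 (adjusted p = 0.00754, limma), COL1A1 fell by 1.58 on that scale (adjusted p = 0.00663) and PDGFRB was at −1.14 (adjusted p = 0.0525). ZEB1, a transcription factor of mesenchymal cells that was not on that list and was added after its value was seen, was higher by 4.33 (adjusted p = 0.00117). SNAI2, another such factor on the panel and also added later, was at 0.66 (adjusted p = 0.500, limma), with 1 well at 40. The panel thus showed no shared direction of these genes. These changes are relative to 18S. Relative to B2M, PDGFRA was at 0.83 (adjusted p = 0.162, limma), COL1A1 at −3.96 and PDGFRB at −3.52. CDH1 was at 0.44 relative to 18S (adjusted p = 0.224) and at −1.94 relative to B2M (adjusted p = 0.00069). The part of such differences between the lines in the results below was not tested.

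ΔCt is the raw Ct of an assay minus the mean 18S Ct of the same sample, in cycles. The log2 fold change is the drop in mean ΔCt from HEK293-vector to HEK293-PRL-1, positive where the gene was higher in HEK293-PRL-1. Testing was by limma on the 174 assays with a Ct below 40 in 1 or more samples, and p-values were adjusted by Benjamini-Hochberg and called at 0.05. With 2 samples per group an exact permutation test cannot give a two-sided p below 0.333, so that the calls rest on limma pooling the variance of many assays. All 4 members passed, 2 of them higher and 2 lower. Over all assays 66.1% passed, 58.6% in the higher direction and 7.47% in the lower. The groups did not overlap in any of the 4 members, but this held for 83.3% of all detected assays.

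**Figure D1:**
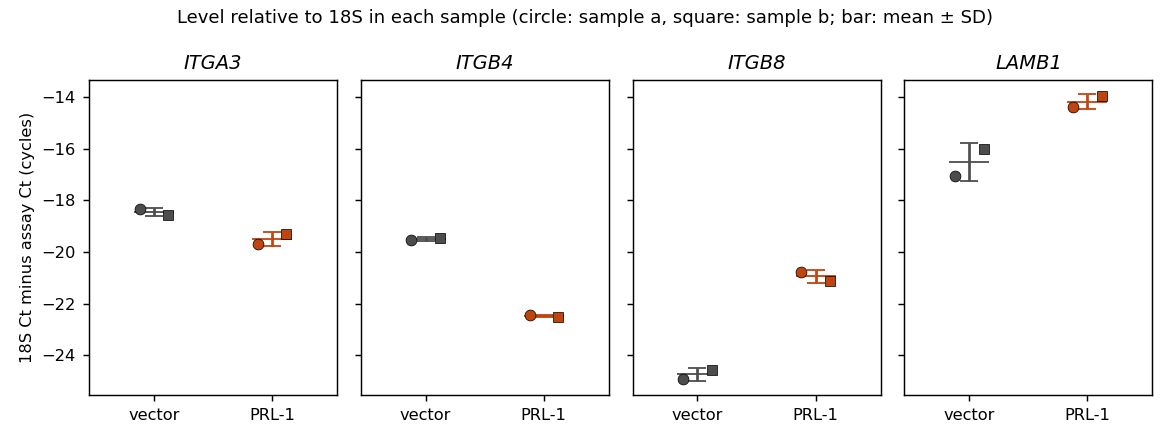
Level of each member relative to 18S in each sample, as the 18S Ct minus the assay Ct in cycles, with the mean and SD of the 2 samples of a group. The axis is a log2 scale on which a higher point means more template. In ITGB4 and ITGB8 the groups lie far apart compared with their spread, in ITGA3 they lie closest, and in LAMB1 the HEK293-vector samples differ most.

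For ITGB4 (assay Hs00174009_m1) the raw Ct was 33.4 cycles in both HEK293-vector samples and 36.6 cycles in both HEK293-PRL-1 samples. The 2 samples of a group were nearly the same, and both HEK293-PRL-1 samples were lower in template. ΔCt averaged 19.5 ± 0.0778 cycles in HEK293-vector and 22.5 ± 0.0445 cycles in HEK293-PRL-1 (SD, n = 2 each). This gave a log2 fold change of −2.99 (standard error 0.21, 95% interval −3.55 to −2.43, adjusted p = 0.00117 from limma). Only 2 of the 174 assays had a lower log2 fold change. On its own variance, which is how the study's methods tested, ITGB4 kept its call (adjusted p = 0.0182). With that test 24.1% of assays passed as higher and 5.17% as lower.

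For ITGA3 (Hs01076873_m1) the raw Ct was 32.2 and 32.6 cycles in HEK293-vector and 33.8 and 33.4 cycles in HEK293-PRL-1. The HEK293-PRL-1 samples were lower in template, and the groups did not overlap. ΔCt averaged 18.4 ± 0.147 cycles in HEK293-vector and 19.5 ± 0.259 cycles in HEK293-PRL-1 (SD, n = 2 each). This gave a log2 fold change of −1.05 (standard error 0.25, 95% interval −1.72 to −0.39, adjusted p = 0.0184 from limma), the 12th lowest of 174. The call did not pass on the assay's own variance (adjusted p = 0.0732), nor with limma without HEK293-PRL-1 sample a (−0.87, adjusted p = 0.157) or without HEK293-PRL-1 sample b (−1.24, adjusted p = 0.0716).

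For ITGB8 (Hs01110394_m1) the raw Ct was 38.8 and 38.6 cycles in HEK293-vector and 34.9 and 35.2 cycles in HEK293-PRL-1. The HEK293-vector samples were thus within 2 cycles of the limit of 40, and both HEK293-PRL-1 samples were higher in template. ΔCt averaged 24.7 ± 0.249 cycles in HEK293-vector and 20.9 ± 0.245 cycles in HEK293-PRL-1 (SD, n = 2 each). This gave a log2 fold change of 3.79 (standard error 0.26, 95% interval 3.09 to 4.49, adjusted p = 0.00117 from limma), the 19th highest of 174. Its adjusted p was 0.0407 on its own variance. With a robust variance trended on the level of the assays its standard error was 0.45, and it kept its call (adjusted p = 9.4e-05, limma). Leaving out single samples moved the log2 fold change between 3.61 and 3.96.

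For LAMB1 (Hs01055971_m1) the raw Ct was 30.9 and 30.0 cycles in HEK293-vector and 28.5 and 28.1 cycles in HEK293-PRL-1. Both HEK293-PRL-1 samples were higher in template, and the HEK293-vector samples differed from each other. ΔCt averaged 16.5 ± 0.734 cycles in HEK293-vector and 14.2 ± 0.288 cycles in HEK293-PRL-1 (SD, n = 2 each). An SD between HEK293-vector samples above that of LAMB1 was found in 10.3% of all assays. This gave a log2 fold change of 2.35 (standard error 0.43, 95% interval 1.21 to 3.48, adjusted p = 0.00760 from limma), the 62nd highest of 174. LAMB1 did not pass on its own variance (adjusted p = 0.0888), and its log2 fold change was 1.83 without HEK293-vector sample a and 2.87 without sample b, each still called.

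**Figure D2:**
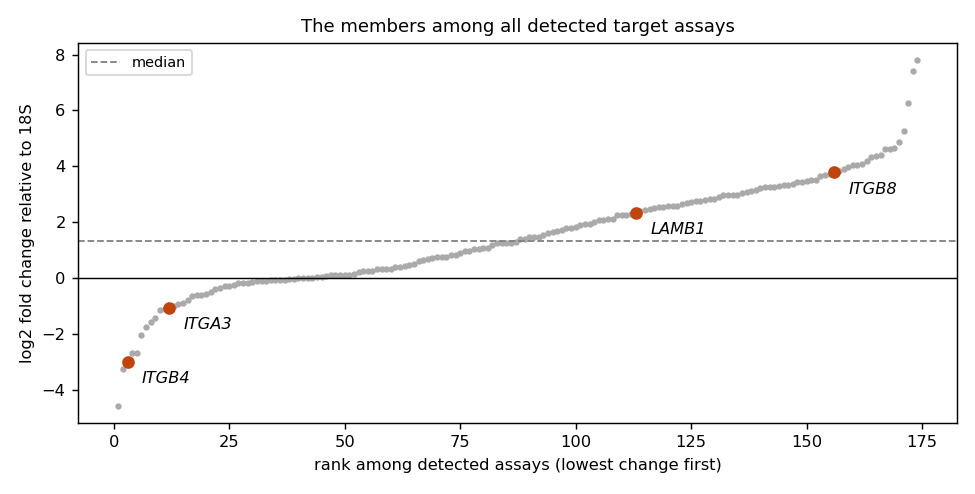
Log2 fold change relative to 18S of the 174 detected target assays in order of size, with the 4 members marked and the median of 1.34 as a dashed line. ITGB4 and ITGA3 lie in the lower tail, LAMB1 above the median and ITGB8 further up the upper part.

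The panel as a whole was shifted upwards relative to 18S, with a median log2 fold change of 1.34, and the choice of reference sets this shift. Raw Ct of GAPDH was 21.3 cycles in both HEK293-vector samples and 21.0 and 20.8 cycles in HEK293-PRL-1. Raw Ct of B2M was 28.4 and 28.1 cycles in HEK293-vector and 26.0 cycles in both HEK293-PRL-1 samples. Relative to 18S, GAPDH was thus higher in HEK293-PRL-1 by 0.55 and B2M by 2.38 on the log2 scale, with no overlap of the groups. Changing the reference subtracts this amount from the change of every assay. The study picked 18S from its candidate references as the most stable by the DataAssist software, and that choice was not tested again here.

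The further references were GAPDH, B2M, the mean of 18S, GAPDH and B2M, and the median assay. The last is the median Ct in each sample of those assays that every sample detected, and not a single assay. It was the value of ITGB1 and MAPK8 in HEK293-vector a and b, and of ITGB5 and ITGA4 in HEK293-PRL-1 a and b. ITGB1, ITGB5 and ITGA4 are integrin subunits counted below. Relative to 18S the median assay was higher in HEK293-PRL-1 by 2.19, against a median log2 fold change of 1.34 over all detected assays. Under each of these 4 references ITGB4 and ITGA3 were lower and ITGB8 was higher, and all 3 passed the threshold of limma. With B2M limma gave every assay the same standard error of 0.53, so that its calls do not use the spread of the single assay. For ITGB4 the log2 fold change was −3.54 with GAPDH, −3.97 with the mean of 18S, GAPDH and B2M, −5.18 with the median assay and −5.37 with B2M. For ITGA3 it was −1.61, −2.03, −3.24 and −3.43 in the same order of references. For ITGB8 it was 3.24, 2.81, 1.60 and 1.41. The decreases were thus smallest with 18S and the rise of ITGB8 was largest with it.

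LAMB1 changed with the reference. Relative to GAPDH it was higher by 1.80 (adjusted p = 0.0125, limma) and relative to the mean of the 3 reference genes by 1.37 (adjusted p = 0.0206). It was 0.16 with the median assay (95% interval −0.46 to 0.79, adjusted p = 0.545) and −0.031 with B2M (95% interval −1.07 to 1.01, adjusted p = 0.959). Relative to the median assay and to B2M, no change of LAMB1 was detected. The median log2 fold change over all detected assays was −0.85 with the median assay and −1.04 with B2M. LAMB1 thus lay above the median of the panel with both. The shares of all assays called also moved. They were 49.4% higher and 21.8% lower with GAPDH, 43.7% higher and 32.8% lower with the mean of the 3 reference genes, 25.9% higher and 51.7% lower with the median assay, and 12.6% higher and 47.1% lower with B2M.

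**Figure D3:**
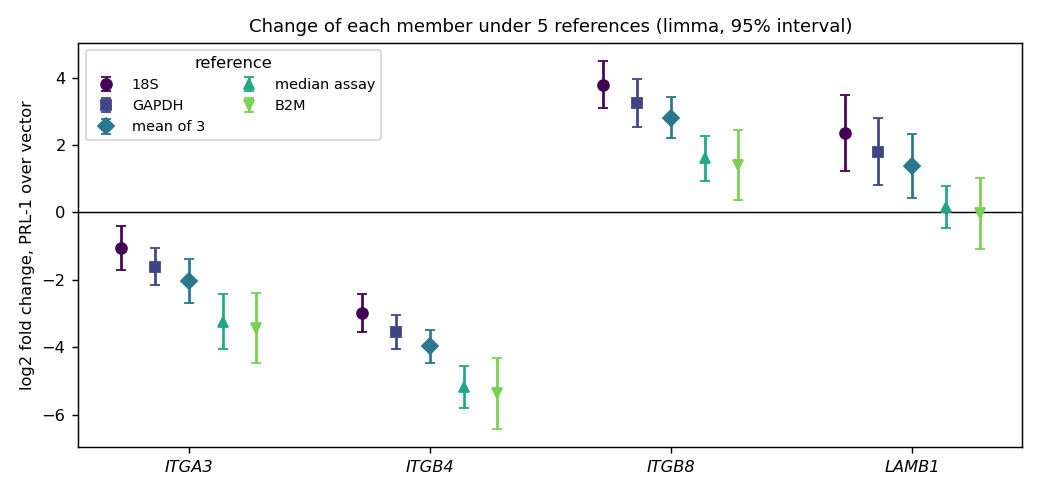
Log2 fold change of each member, HEK293-PRL-1 over HEK293-vector, with its 95% interval from limma under 5 references. The changes of ITGB4 and ITGA3 stay below 0 and that of ITGB8 above 0 under all 5, and LAMB1 lies at 0.16 with the median assay and at −0.031 with B2M.

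Differences between the changes of 2 assays do not depend on a reference, since it cancels within each sample. In all, 10 such pairs were compared as the Ct of one assay minus that of the other in each sample. The 6 pairs of members were set out in the design, and 4 pairs of a member with a known partner chain were chosen after their values were seen. The 95% intervals were taken from each pair's own spread, and the exact two-sided permutation p was 0.333 in every pair without overlap of the groups, the smallest it can be (0.370 with Benjamini-Hochberg adjustment over the 10 pairs).

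The widest separation among the members was between the 2 beta subunits. The Ct of ITGB8 was above that of ITGB4 by 5.35 and 5.11 cycles in the HEK293-vector samples and below it by 1.69 and 1.41 cycles in the HEK293-PRL-1 samples. The order of the 2 assays was thus turned between the lines, although Ct values of different assays do not give relative amounts of their transcripts. The change of ITGB4 minus that of ITGB8 was −6.78 on the log2 scale (95% interval −7.58 to −5.98), which is a 110-fold change of their ratio. Of the 173 other detected assays, 11% lay at least as far above ITGB4, so that this distance is not particular to ITGB8. ITGB4 also fell further than ITGA3, by 1.94 (95% interval 0.79 to 3.08), and 1.73% of the others lay at least as far below ITGA3. ITGB8 and LAMB1, which were both higher relative to 18S, differed by 1.44, and the 95% interval ran from −0.75 to 3.63 and so included 0. The intervals of the other 3 pairs, ITGA3 with ITGB8, ITGA3 with LAMB1 and ITGB4 with LAMB1, did not include 0. The shares of other assays at least as far above the first gene were 11%, 35.8% and 35.8% in the same order.

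The changes of ITGA3 and ITGB4 were also set against those of the subunits they pair with. ITGA6, the partner of ITGB4, had a raw Ct of 33.0 and 32.3 cycles in HEK293-vector and of 29.7 and 29.4 cycles in HEK293-PRL-1. The change of ITGB4 minus that of ITGA6 was −6.27 on the log2 scale (95% interval −7.98 to −4.55), and 18.5% of the 173 other detected assays lay at least as far above ITGB4. ITGB1, the partner of ITGA3, had a raw Ct of 32.1 and 31.4 cycles in HEK293-vector and of 28.8 and 28.3 cycles in HEK293-PRL-1. The change of ITGA3 minus that of ITGB1 was −4.41 (95% interval −6.68 to −2.14), and 16.2% of the 173 others lay at least as far above ITGA3. Both members were in the lower tail of the panel, so that these distances are not particular to the partner chains. Transcripts were measured here, not the subunit proteins or their pairs.

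The changes of 2 other laminin chains lay closer to that of LAMB1. LAMA1 and LAMC1 assemble with LAMB1 into one laminin trimer. The change of LAMB1 differed from that of LAMA1 by 0.06 on the log2 scale (95% interval −1.17 to 1.29), and in this pair the samples of the groups overlapped (exact permutation p = 1). It differed from that of LAMC1 by 0.62 (95% interval −0.40 to 1.64). The intervals do not exclude a difference of over 2-fold in either pair. Of the 173 other detected assays, 64.7% lay at least as far below LAMB1 as LAMA1, and 56.1% as far as LAMC1. These shares count assays further off in 1 direction and do not say how many lay as close. LAMB1 was the 62nd highest of 174, between IL1A, which is not a laminin chain, and LAMA1. The assays most like it over the 4 samples, FLT1 and IRS1, are not laminin chains either. Whether the closeness is particular to the partner chains was not tested.

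**Figure D4:**
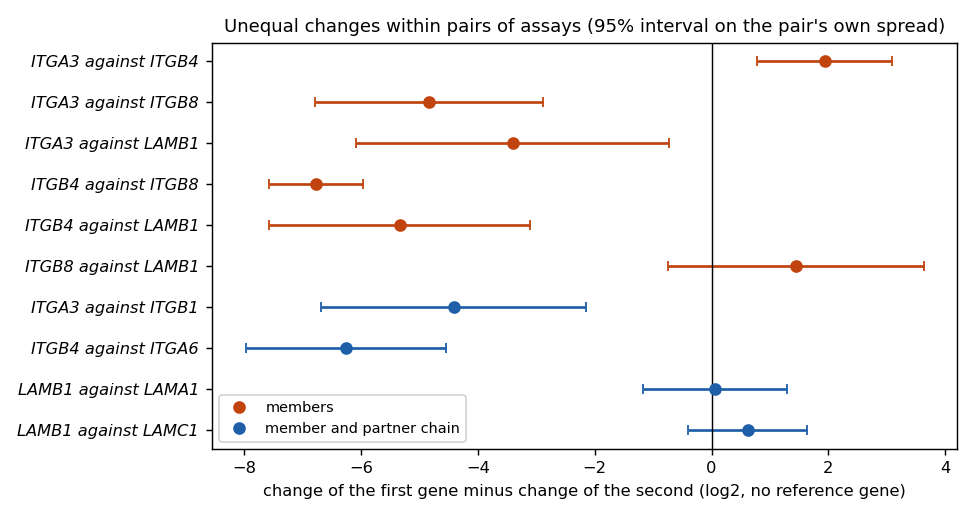
Change of the first gene of a pair minus that of the second, HEK293-PRL-1 against HEK293-vector on the log2 scale, with 95% intervals from the pair's own spread over 4 samples. ITGB4 against ITGB8 lies at −6.78 and ITGB4 against ITGA6 at −6.27, and the intervals of LAMB1 with ITGB8, LAMA1 and LAMC1 include 0.

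The panel held 11 other integrin subunits and 5 other laminin chains. Of the integrin subunits, 6 passed the threshold of limma as higher and 0 as lower relative to 18S, against 58.6% and 7.47% of all detected assays, with a median log2 fold change of 1.95 against 1.34 over all detected assays. The 6 were ITGA4 (3.44), ITGB1 (3.36), ITGA6 (3.28), ITGA1 (3.06), ITGA2 (2.67) and ITGA8 (1.95), which are alpha subunits of matrix receptors apart from ITGB1, a beta subunit that all of these can pair with. Of these, ITGA4 is known as a receptor subunit for fibronectin and VCAM1, and ITGA1 and ITGA2 for collagens. The remaining 5 did not pass, ITGA7 at −1.01 (adjusted p = 0.0523), ITGB2 at −0.62, ITGB3 at −0.18, ITGA5 at −0.08 and ITGB5 at 0.50. ITGA7 was the 1 subunit lower at an unadjusted p under 0.05 (0.0349 from limma). On each assay's own variance 1 of the 11, ITGA4, was called higher and 0 lower (6 and 0 at an unadjusted p under 0.05). With that test 24.1% and 5.17% of all detected assays were called. ITGB3 was detected late, between 36.0 and 37.6 cycles. ITGB2 did not reach the threshold in HEK293-PRL-1 sample b, and its log2 fold change was 0.38 in place of −0.62 with that well as missing.

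Among all 14 integrin assays of the panel, counting the 3 members, ITGB8 had the highest log2 fold change relative to 18S and ITGB4 the lowest. The interval of ITGB8 overlapped those of ITGA4, ITGB1, ITGA6, ITGA1 and ITGA2, so that its place among these is not fixed by the data. The interval of ITGB4 overlapped that of ITGB2, which was wide. ITGA3 and ITGB4 were called lower relative to 18S, and ITGA7 missed the threshold with nearly the change of ITGA3. ITGA7 was called lower with 18S of its own plate (adjusted p = 0.0469, limma) and with each of the 4 other references. With B2M as the reference 0 of the 11 other subunits were called higher by limma (1 at an unadjusted p under 0.05) and 5 lower, against 12.6% and 47.1% of all assays. With the median assay 4 were called higher and 5 lower, against 25.9% and 51.7%.

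All 5 other laminin chains passed as higher relative to 18S, as did 58.6% of all detected assays, with log2 fold changes of 2.29 for LAMA1, 1.78 for LAMA3, 1.73 for LAMC1 and 1.48 for LAMB3. LAMA2 was at 40 in both HEK293-vector samples and at 37.7 and 37.6 cycles in HEK293-PRL-1, so that its change was at least 5.84-fold. The median over the list was 1.78, and LAMB1 stood at 2.35. On each assay's own variance 1 of the 5, LAMA2, was called higher and 0 lower (5 and 0 at an unadjusted p under 0.05). With that test 24.1% and 5.17% of the 174 detected assays were called, and 84 and 15 had an unadjusted p under 0.05. The HEK293-vector values of LAMA2 were both set at 40, so that their SD of 0.0820 cycles is that of 18S alone. This call thus does not measure the spread of LAMA2 in HEK293-vector. As for LAMB1, the calls rested on the reference. With the median assay 0 of the 5 chains were called higher and 1 lower (limma, with 0 and 2 at an unadjusted p under 0.05). Of all detected assays 25.9% were called higher and 51.7% lower with that reference. With B2M 0 chains were called in either direction (limma, and 0 at an unadjusted p under 0.05), against 12.6% and 47.1% of all assays.

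**Figure D5:**
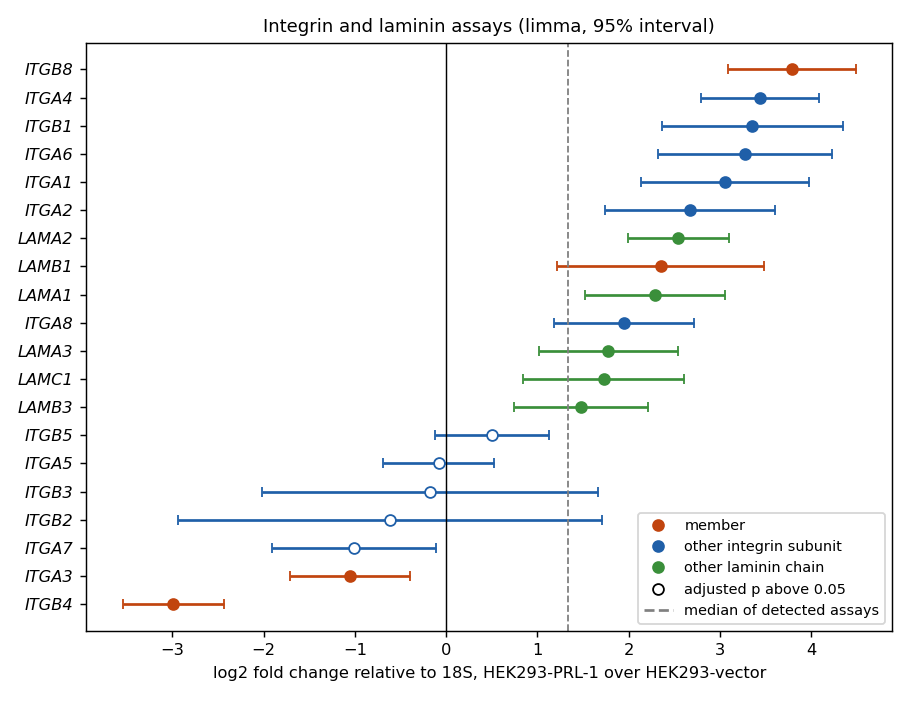
Log2 fold change relative to 18S with its 95% interval from limma for the 4 members, the 11 other integrin subunits and the 5 other laminin chains of the panel. Filled points have an adjusted p of at most 0.05, and LAMA2 stands at a lower bound, since both HEK293-vector samples were at a Ct of 40. ITGB4 and ITGA3 stand at the low end, and ITGB8 is at the high end beside 5 subunits with overlapping intervals.

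Of 7 genes for the ligand fibronectin and for proteins at integrin tails and focal adhesions, 2 passed as higher relative to 18S and 0 as lower, against 58.6% and 7.47% of all detected assays (limma, with 3 and 0 at an unadjusted p under 0.05). On each assay's own variance 0 of the 7 passed, against 24.1% of all detected assays as higher and 5.17% as lower. PTK2 was the 1 gene at an unadjusted p under 0.05 with that test (0.0255). PTK2, which encodes the focal adhesion kinase FAK, was at 2.99 (adjusted p = 0.00292, limma) and VCL, which encodes vinculin, at 1.46 (adjusted p = 0.0134). The others did not pass, with log2 fold changes of 0.70 for BCAR1, 0.31 for TLN1, which encodes the integrin activator talin, 0.10 for PXN, −0.08 for SRC and −0.10 for FN1. The median over all 7 was 0.31, below that of all detected assays. With the median assay as the reference 1 of the 7 was called higher and 6 lower, against 25.9% and 51.7% of all assays.

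The assays most like each member over the 4 samples were sought among the 164 other assays detected in all samples, by the root mean square difference of ΔCt centred on each assay's mean. Most like ITGB4 were PTP4A3, which encodes PRL-3, at a difference of 0.220 cycles, and PCDH17, a protocadherin, at 0.306 cycles. Most like ITGA3 were COL6A2, a collagen VI chain, at 0.0692 cycles, and NFKB2 at 0.110 cycles. Most like ITGB8 were the kinase MAP3K5 at 0.168 cycles and ACTR3, a subunit of the Arp2/3 complex, at 0.231 cycles. Most like LAMB1 were FLT1, a VEGF receptor, at 0.117 cycles and IRS1 at 0.144 cycles. With 4 samples in 2 groups this likeness mainly compares the size of the change between the groups.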

How the data were processed

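Expression of 184 target genes was measured by qRT-PCR in 4 samples, on 2 plates of 96 wells per sample. RNA was treated with DNase and reverse transcribed with random hexamers. The authors deposited raw Ct values of all wells without normalization, in which 40 stands for any value at or above it. They also deposited fold changes between the groups made with 18S, which were not used. Partek 6.12.0531 is named in the submitters' processing notes.

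Columns of Ct values name a group and a letter but no replicate number. ΔCt was taken against the mean of the 2 wells of 18S per sample. Assays below 40 in at least 1 sample were tested (174), with 40 kept as 40, by limma 3.58.1 (lmFit and eBayes, R 4.3.3), with 2 residual degrees of freedom per assay and a prior of 2.46. Each cycle was taken to double the product of every assay. A Ct carries no read depth. The precision given here was estimated from the spread between the samples, which was not the same for all assays. The script was checked on simulated data. Where nothing says that samples came from separate RNA handling, p-values measure the spread between these samples. The labels call them biological replicates.

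The members and gene lists were chosen with earlier results of these data known. Named are the members, all genes of the lists, the reference genes, PTP4A1 and, for each member, the 2 assays with the most similar profile. ZEB1 and SNAI2 were added later. The alternatives were 4 other references, 18S of the own plate, 4 treatments of low values, 2 other variances, the column letters as a block and leaving out each sample. A further reference gene is not reported here. Figures were drawn in Python 3.11.15 with pandas 2.3.3 and matplotlib 3.10.9.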

Additional observations from a re-analysis of the deposited data

How the results depend on the processing

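With 15 or 16 alternatives each, ITGB4 (−5.37 to −2.93) and ITGB8 (1.41 to 3.96) kept direction and call in every one run. ITGB8 was not tested where a Ct under 35 in both samples of a group was required. ITGA3 kept its direction throughout (−3.43 to −0.87) and lost its call on its own variance (−1.05) and without either HEK293-PRL-1 sample, where each sample left out in turn gave −1.24 to −0.87. LAMB1 was at −0.031 with B2M and lost its call with the median assay (0.16) and on its own variance (2.35). With B2M limma set an infinite prior and thus 1 common standard error for all assays. With the trended variance the standard errors of ITGA3 (0.35), ITGB4 (0.36) and ITGB8 (0.45) were above those of the main fit (0.25, 0.21 and 0.26). That of LAMB1 was below it (0.36 against 0.43). A fit without 1 sample assumes that the lone sample varies like the other group.

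The labels number the replicates alike in both groups, but the columns carry only letters. With these letters as a replicate block the members had log2 fold changes of −1.05, −2.99, 3.79 and 2.35 and kept their calls, and 104 assays were called higher and 13 lower. Across 165 assays the correlation of a minus b between the groups was 0.0383 (Pearson), so that the letters were not taken to pair samples.

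Relative to 18S, 102 assays were called higher and 13 lower. With GAPDH 38 were called lower and with the mean of 3 references 57. With the median assay 45 were called higher and 90 lower, and with B2M 22 and 82. On their own variance 42 were called higher and 9 lower. With each sample left out in turn, 74 to 108 were called higher and 7 to 19 lower. The number of other integrin subunits called higher was 6 and became 0 with B2M and 1 on their own variance. The number called lower was 0 and became 2 with GAPDH and with the mean of 3 references, 5 with B2M and with the median assay, and 0 to 2 with samples left out. It was 1 with the own-plate 18S, the 3 stricter treatments of low values and the trended variance. The number of other laminin chains called higher was 5 and became 3 with the mean of 3 references, 3 with the filter at 35, which left 3 chains to test, 0 with B2M and the median assay, 1 on their own variance and 3 to 5 with samples left out. With the median assay 1 was called lower. Apart from that filter the cause was not tested. The change of LAMB1 minus that of LAMA1 ran from −0.22 to 0.35 with samples left out, and the other 9 pairs kept their direction.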
